A study of Eisenia fetida with 6 samples.

Results

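The subject is a set of 69 abundant unigenes of the earthworm intestine whose counts stayed nearly level over all 6 libraries of the study once libraries were scaled by size factors. A unigene is here an assembled transcript with a single number in its identifier. The set was chosen by measured counts. N was the expected count divided by the library's median-of-ratios size factor, computed from 35181 assembled sequences with a value above 0 in every library. A member had an N of at least 500 in every library and a highest N at most 1.3 times its lowest. It was also shorter than 5000 bases and held under 0.1% of control counts on average. Of 55641 sequences, 47552 were single unigenes, and 510 of these had an N of at least 500 in every library. The limit on length left 492, the limit on share left 443, and the ratio limit left 69, or 15.6% of the 443. Because every library entered the choice, no library was left in which steadiness could be tested, and the values of the members are given as a description.

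The worms were adult Eisenia fetida, a compost earthworm used in soil toxicology, kept for 14 days in artificial soil at 10 animals to a container. Untreated controls gave 3 libraries. Worms exposed to TnBP at 10 mg/kg gave another 3, TnBP being tri-n-butyl phosphate, a phosphate ester found in flame-retardant, plasticizer and solvent products. Each library was made from the intestines of 3 worms pooled, with 9 worms per treatment, so differences between single worms are not visible. The labels leave unsaid how pools were spread over containers. The 3 pools of a group may have shared a single container, and container and treatment then cannot be told apart. Totals ran from 8435554 to 9643939 expected counts per library.

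Reference transcripts are transcripts against which others are measured, in quantitative PCR and in sequencing alike. Genes of upkeep functions that most cells need, such as the cytoskeleton, glycolysis, translation or protein turnover, are the usual candidates, and each has to be checked in the tissue and treatment at hand. The earthworm intestine digests soil and litter, takes up nutrients and is lined on its outer side by chloragogenous tissue, which stores and detoxifies. The files pair no identifier with a gene name or sequence. For that reason 0 of 20 names of common reference genes occurred in the 55641 identifiers. This does not bear on whether such genes were present. The members are therefore described by level, length and range, without a function.

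The steadiest member was Unigene25339_Eisenia_Fetida, 961 bases long. Its N was 2537, 2489 and 2679 in the control libraries and 2678, 2617 and 2509.9 in the TnBP libraries. The highest value exceeded the lowest by a ratio of 1.08, and the groups overlapped, with means of 2568 ± 98.6 and 2602 ± 85.3 (SD, n = 3). Unigene45263_Eisenia_Fetida, 3637 bases long, had an N of 695, 708 and 692 in controls and of 749, 744 and 727 after TnBP. Its range was as narrow, yet its groups did not overlap, since each TnBP library lay above each control library by a little. Its group means were 698 ± 8.68 and 740.4 ± 11.6, a ratio of 1.06.

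Unigene1342_Eisenia_Fetida, 2400 bases long, stood at 828, 758 and 783 in controls and at 791, 781 and 828 after TnBP. Its highest control and highest TnBP values were alike, and its group means, 789.8 ± 35.4 and 800.1 ± 24.3, differed by less than either SD (n = 3). Unigene5835_Eisenia_Fetida, 1957 bases long, stood at 925, 978 and 933 in controls and at 954, 1013 and 984 after TnBP. These groups overlapped as well, with a ratio of the means of 1.04. Unigene3276_Eisenia_Fetida, 2438 bases long, stood at 708, 759.8 and 724 in controls and at 685, 702 and 689.9 after TnBP. Here each TnBP library lay below each control library, and the ratio of the means was 0.948.

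**Figure D1:**
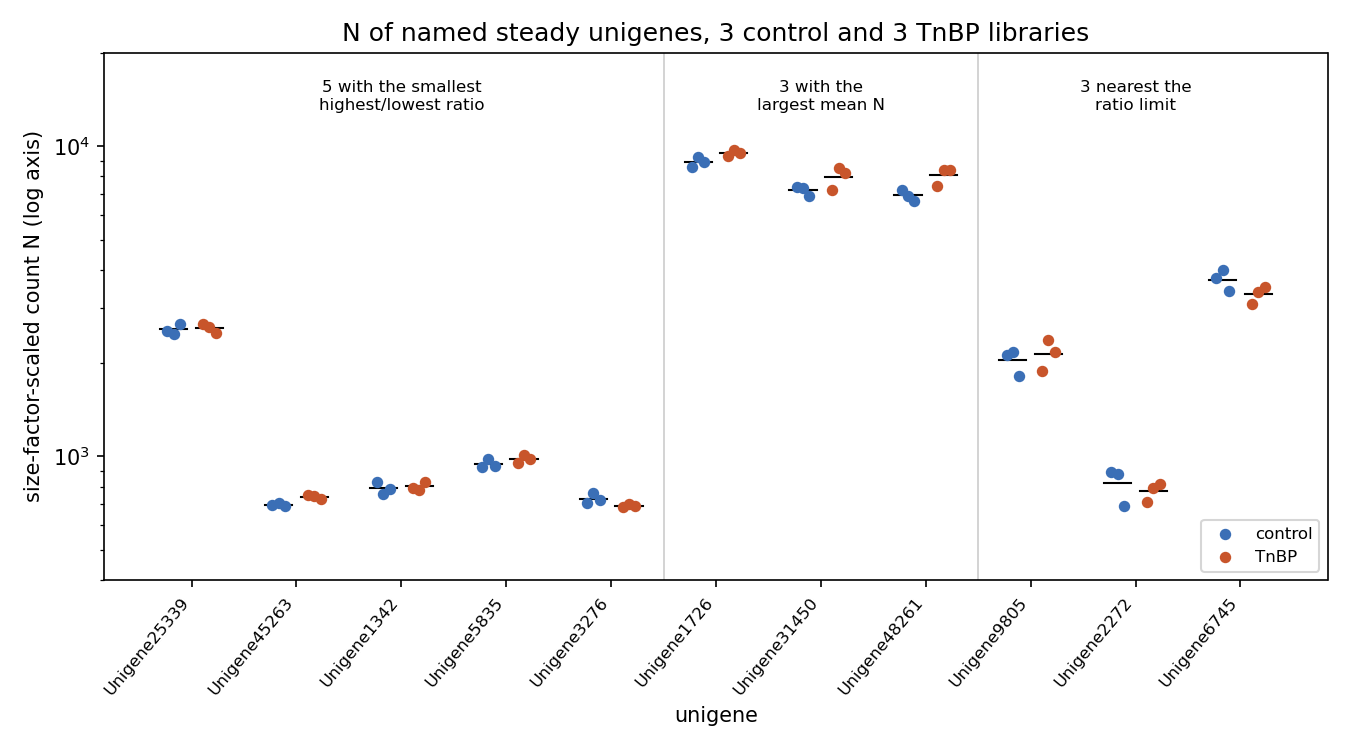
Size-factor-scaled counts N (log axis) of 11 of the 69 steady unigenes, labelled without their shared species suffix, in 3 control (blue) and 3 TnBP (orange) libraries, with a bar at each group mean. The 5 on the left vary by a ratio of 1.08 to 1.11 over the 6 libraries, and the 3 on the right by 1.293 to 1.299.

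The most abundant members were less level than these but still narrow in range. Unigene1726_Eisenia_Fetida, 3911 bases long, had the largest mean N of the set, with 8554, 9219.8 and 8918 in controls and 9302, 9741 and 9523 after TnBP. Every TnBP library was above every control library, and the means were 8897 ± 334 and 9522 ± 219, a ratio of 1.07. Unigene31450_Eisenia_Fetida, 1425 bases long, had 7382, 7321 and 6919 in controls and 7234, 8523 and 8215 after TnBP. Its TnBP replicate 1 lay among the controls and the other TnBP libraries above them. Unigene48261_Eisenia_Fetida, 947 bases long, had 7250.3, 6918 and 6683 in controls and 7474, 8419 and 8370.4 after TnBP. Its groups did not overlap, and the ratio of its means was 1.16.

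Compared per length, Unigene48261_Eisenia_Fetida was the most abundant of the members. Its level was 634 ± 19.6 FPKM in controls and 1226 ± 48.7 FPKM after TnBP (SD, n = 3). FPKM is the deposited level, scaled by the authors for length and library depth. Unigene7506_Eisenia_Fetida, the third longest member with 3867 bases, had the lowest level, with 11.2, 13.5 and 13.9 FPKM in controls and 20.1, 20.1 and 20.6 FPKM after TnBP. Mean FPKM over the 6 libraries ran from 16.6 to 930 in the set, with a median of 76.2. The lowest member stood above 93.4% of all 55641 sequences in mean FPKM and the median member above 98.7%, which follows from the minimum set on N.

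The ratio of highest to lowest N was at most 1.1 in 4 members, above 1.1 and up to 1.2 in 23, and above 1.2 in 42. The median ratio was 1.22. At the limit itself, values on both sides were alike. Unigene9805_Eisenia_Fetida lay just inside, at 2123, 2173 and 1823 in controls and 1882, 2369 and 2167 after TnBP. Unigene2272_Eisenia_Fetida, with 894, 879 and 690.3 in controls and 713, 789 and 813 after TnBP, and Unigene6745_Eisenia_Fetida, with 3754, 4002 and 3406 against 3095, 3388 and 3516, followed it. Just outside lay Unigene45953_Eisenia_Fetida with a ratio of 1.301, Unigene1952_Eisenia_Fetida with 1.309 and Unigene26417_Eisenia_Fetida with 1.317. Within the 443 abundant unigenes, 89 had a ratio above 1.3 and up to 1.5, 126 above 1.5 and up to 2, 131 above 2 and up to 4, and 28 above 4.

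Steadiness within a group was common among the abundant unigenes, and most of the 374 outside the limit exceeded it through the distance between groups. Of the 443, 393 stayed within a ratio of 1.3 over the 3 control libraries, 409 over the 3 TnBP libraries, and 371 within each group taken separately. Of these 371, 69 met the limit over all 6 libraries. The other 302 comprised 160 with a higher and 142 with a lower mean N after TnBP, and their median absolute log2 ratio between groups was 0.66. In the members, the median ratio of highest to lowest N was 1.12 within controls and 1.11 within TnBP libraries. The largest was 1.295 and 1.276, respectively.

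The members still varied by more than counting error. The coefficient of variation of N over 6 libraries was 3.27% to 10.9% among members, with a median of 7.74%, against a median of 3.13% that counting error alone would give at their counts. Divided by the value expected from counting error, the chi-square of a member's counts was 0.849 to 73.2, with a median of 5.46. It was under 1 in 2 members, Unigene45263_Eisenia_Fetida and Unigene1342_Eisenia_Fetida, and under 2 in 7, so in most members the libraries differed by more than counting error. For Unigene1726_Eisenia_Fetida it was 18.01 despite its narrow range, because its counts were the highest. In 56 of the 69 members the range within at least 1 group exceeded the gap between the group means.

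The group means of N lay close together, which the rule itself asked for. The ratio of TnBP to control ran from 0.874 to 1.18 with a median of 1.05, and it was above 1 in 45 members and below 1 in 24. It was within 5% in 22 members and within 10% in 50. The groups did not overlap in 19 members, 15 of them higher after TnBP and 4 lower. Over all 25353 sequences kept for testing, the groups were apart in the higher direction in 30.9% and in the lower in 27%. The rule used this contrast, so the smaller shares among members are not a finding.

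With edgeR's quasi-likelihood fit and TMM scaling, another way to scale libraries, the members' log2 changes ran from -0.24 to 0.20 with a median of 0.03 and a median standard error of 0.09. The median over all tested sequences was 0.01, with a median standard error of 0.29. At a Benjamini-Hochberg adjusted p under 0.05, 1 of 69 members was called, against 48.6% of all tested sequences. It was Unigene8131_Eisenia_Fetida, 3794 bases long, whose N was 1834, 1964 and 1761 in controls and 1674, 1554 and 1632 after TnBP. Its TnBP libraries lay below its control libraries, and its log2 change was -0.24 ± 0.085 (SE). Calls in the lower direction made up 24.5% of all tested sequences. The adjusted p of Unigene8131_Eisenia_Fetida was 0.0395 (edgeR) and, with single libraries left out, 0.0288 to 0.114. The call held without control replicate 3, when 2 members were called lower, and was lost without any other library, with the replicate number as a block, in DESeq2 and with no count filter. Tested with no count filter, 5 members were called higher and 0 lower, and with a filter at 5 CPM, 0 higher and 6 lower. Shares of all sequences called in each direction under these filters are not given here. These counts are therefore not read as a result about the members.

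The 2 members with the highest log2 changes in the fit, and the member with the lowest after Unigene8131_Eisenia_Fetida, were not called. Unigene7926_Eisenia_Fetida, 3545 bases long, had an N of 2223, 2252 and 2375 in controls and of 2681, 2684 and 2725 after TnBP. Its groups were apart, and its log2 change was 0.20 ± 0.079 (SE). Unigene45242_Eisenia_Fetida, 2606 bases long, had 2988, 2939.9 and 3284 in controls and 3477, 3687 and 3602 after TnBP, with a log2 change of 0.18 ± 0.083. Unigene6745_Eisenia_Fetida, described above at the limit, had a log2 change of -0.20 ± 0.089, and its groups overlapped.

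Under library totals, the same 69 unigenes stood higher after TnBP. Unigene25339_Eisenia_Fetida had 213, 220.4 and 232 CPM in controls, CPM here being counts scaled to the library total alone, and 398, 359 and 361 after TnBP. Its groups were far apart on this scale, at 222 ± 9.55 and 373 ± 22.3 CPM (SD, n = 3), a ratio of 1.68. Unigene5835_Eisenia_Fetida had 77.6, 86.6 and 80.8 CPM in controls and 142, 139 and 141 after TnBP, a ratio of 1.72. The members' ratios of TnBP to control ran from 1.45 to 1.96, with a median of 1.74. In all 69 the lowest TnBP library lay above the highest control library, a pattern found in 58% of all tested sequences. The rule fixed this for the members, so it is not a finding. In every TnBP library the size factor per total count exceeded that of every control by more than 1.3-fold.

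None of the 69 was within the ratio limit of 1.3 on that scale, which the difference between size factors and totals fixed in advance. Their ratios of highest to lowest library were 1.599 to 2.17. With edgeR on library totals, 69 of 69 members were called higher, against 53.8% of all tested sequences, and their log2 changes were 0.54 to 0.97. The smallest belonged to Unigene8131_Eisenia_Fetida, which the TMM fit called lower. The median log2 change was 0.80 in the members and 0.78 over all tested sequences. The members were chosen as level under size factors, which are medians over sequences. Neither this closeness nor the calls under totals are therefore a finding. In sum the members took 0.986% ± 0.0312 of a control library and 1.72% ± 0.010 of a TnBP library (SD, n = 3).

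Deposited FPKM moved the members in the same way as library totals. Unigene25339_Eisenia_Fetida stood at 221, 229 and 241 FPKM in controls and at 416, 374 and 377 FPKM after TnBP. Unigene3276_Eisenia_Fetida, lower after TnBP in N, stood at 23.8, 27.0 and 25.1 FPKM in controls and at 41.0, 38.7 and 39.9 FPKM after TnBP. Both were higher in every TnBP library than in any control library, as were all 69 members, against 58.1% of tested sequences in FPKM. Ratios of mean FPKM ran from 1.46 to 1.96 with a median of 1.74. In the limma fit of log2(FPKM + 1), all 69 were called higher, against 32.8% of 55641 sequences. As under totals, the rule fixed the direction, so these shares are not a finding.

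**Figure D2:**
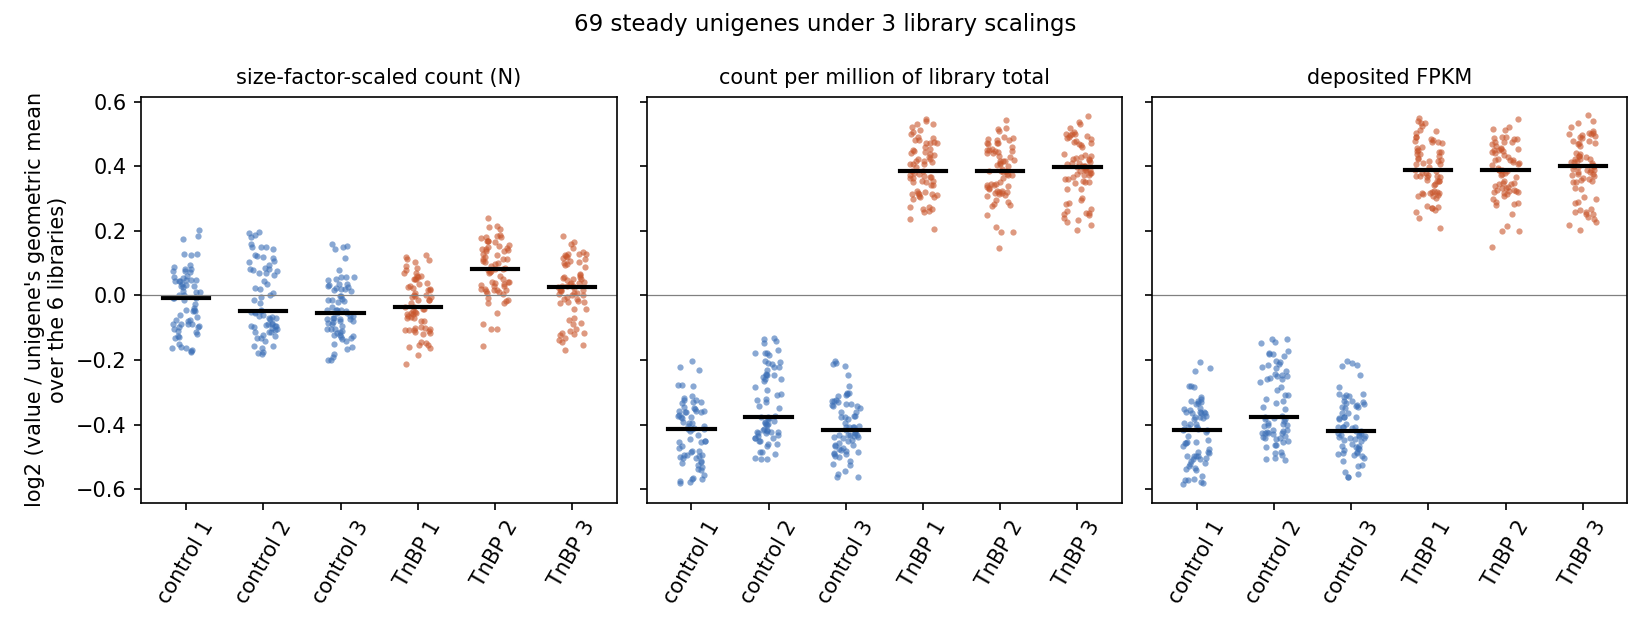
Each point is 1 of the 69 steady unigenes in 1 library, as the log2 ratio of its value to its own geometric mean over the 6 libraries, for N, CPM of library totals and FPKM, with a bar at the median. In N the library medians lie between -0.06 and 0.08, whereas under totals they lie between -0.42 and -0.38 in controls and between 0.38 and 0.40 after TnBP.

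The distance between the scales came from the library factors. Size factors were 0.708, 0.796 and 0.788 in controls and 1.43, 1.31 and 1.37 in TnBP libraries, while totals differed between groups by a log2 ratio of 0.12. Per total count, the size factors of TnBP libraries exceeded those of controls by a log2 ratio of 0.73, or 1.66-fold. The FPKM values held a length reduced by 36.5 to 36.6 bases and a library total 1.036 to 1.040 times the listed one, a form that fitted 744 abundant sequences to within 0.0516%. FPKM thus carried the library totals. RNA content per cell or per worm was not measured in these files, and in bulk tissue fewer cells of a type and less RNA per cell cannot be told apart. Which scale is closer to transcripts per worm was not tested.

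A different set of unigenes was steady under library totals. Of the same 443, 30 stayed within a ratio of 1.3 in CPM of library totals, and 0 of these were among the 69. In FPKM the number was 31, which included those 30 and again 0 of the 69. No overlap was possible. Size factors per total count differed between control replicate 1 and TnBP replicate 1 by more than both limits allow together. The 3 steadiest under totals were Unigene906_Eisenia_Fetida, Unigene100_Eisenia_Fetida and Unigene13615_Eisenia_Fetida. Unigene906_Eisenia_Fetida, 2383 bases long, had 118, 125 and 125 CPM in controls and 121, 112 and 111 after TnBP. In N it stood at 1405, 1416 and 1447 against 813, 815 and 772, so that it was level on the one scale and fell clear of overlap on the other.

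Unigene100_Eisenia_Fetida, 3545 bases long, had 94.0, 98.7 and 94.3 CPM in controls and 99.0, 100.4 and 106 after TnBP, against an N of 1108 ± 16.3 and 712 ± 40.8 (SD, n = 3). Unigene13615_Eisenia_Fetida, 1430 bases long, had 409, 397 and 358 in controls and 353, 383 and 356 after TnBP, against an N of 4497 ± 371 and 2548 ± 220.2. All 30 had a lower mean N after TnBP, with ratios from 0.515 to 0.699, a direction fixed by choosing them under totals. All 30 were called lower in the TMM fit, against 24.5% of all tested sequences and 37.7% of the 443. Given that choice, these calls are not a finding. The 30 held 0.484% of control counts and 0.479% of TnBP counts.

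**Figure D3:**
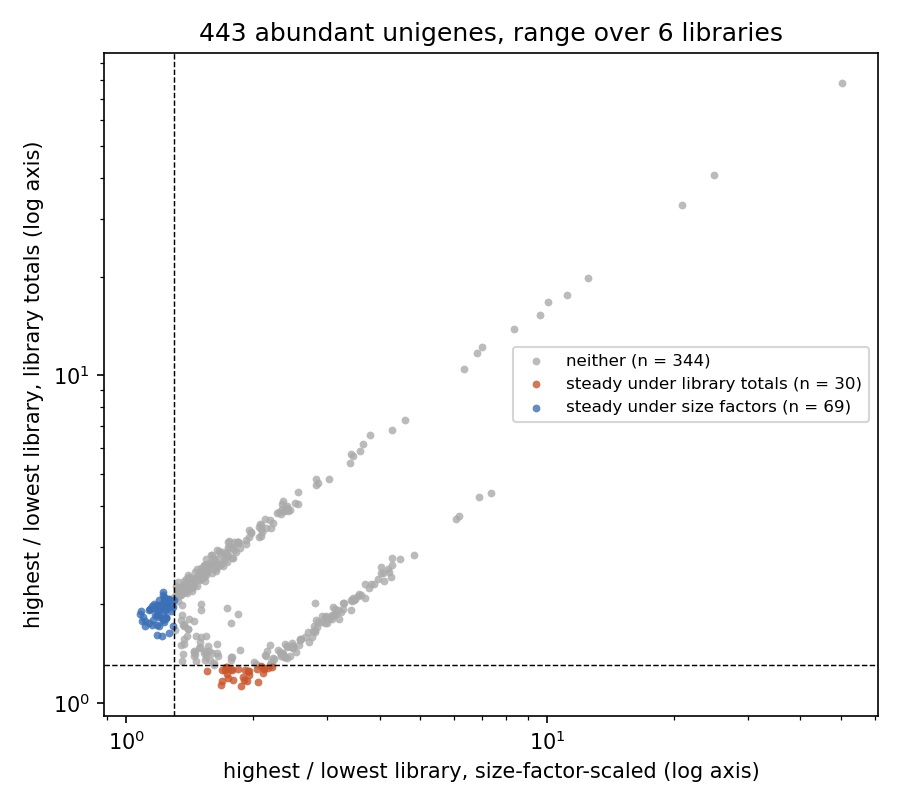
Each of 443 abundant unigenes is placed by its ratio of highest to lowest library in size-factor-scaled counts (horizontal, log axis) and in CPM of library totals (vertical, log axis), with dashed lines at 1.3. The 69 steady by size factors (blue) lie left of the vertical line at 1.599 to 2.17 on the other axis. The 30 steady by totals (orange) lie below the horizontal line. With the scales this far apart none could lie in both, and 0 do.

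Ratios between members do not depend on any library scaling of counts, since the factor of a library cancels. The members were chosen as level on a common scale, though, so small spreads of these ratios follow from the rule. Over 2346 pairs of members, the SD of the log2 count ratio over 6 libraries had a median of 0.13 and reached 0.27. In the closest pair, Unigene8271_Eisenia_Fetida over Unigene2389_Eisenia_Fetida, the ratio of counts was 1.39, 1.37 and 1.35 in controls and 1.37, 1.41 and 1.39 after TnBP. That pair, chosen after all pairs had been computed, kept its ratio nearly constant, with an SD of 0.02 on the log2 scale. In the widest pair, Unigene8411_Eisenia_Fetida over Unigene2272_Eisenia_Fetida, chosen likewise, the ratio went from 0.864 to 1.33.

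Averaged against all other members, the SD of the log2 ratio was 0.10 to 0.18 in the set, with a median of 0.13. The lowest value belonged to Unigene5835_Eisenia_Fetida and the highest to Unigene8131_Eisenia_Fetida. The 374 abundant unigenes outside the limit had a median of 0.37 against the members, and 33 of them were below the highest member. The 30 unigenes steady under totals had a median of 0.44. The larger values outside the set follow from the ratio limit and are not a finding.

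As a library scale of their own, the members gave factors near the size factors on which they were chosen, which is circular and supports neither. The geometric mean of all 69 gave factors that differed from the size factors by -2.89% in control replicate 3 to 5.64% in TnBP replicate 2. The group difference in these factors was 0.89 on the log2 scale, against 0.85 for the size factors, 0.89 for TMM and 0.12 for library totals. The geometric mean of the 5 steadiest members gave 0.87, within -1.12% to 1.35% of the size factors. The 3 most abundant members gave 1.00 and differed from the size factors by -7.57% to 10.2%. Scaled by all 69, 65 members were within a ratio of 1.3, and their median ratio was 1.19.

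TnBP replicate 2 stood apart by a small amount in these members. It held the highest N of 29 of the 69 and the lowest of 2, and its median log2 deviation from the member's own mean was 0.08. In the other 5 libraries the median deviation was -0.06 to 0.03. With factors scaled to a geometric mean of 1, the size factor of TnBP replicate 2 was 1.29. Its TMM library size gave 1.32 and the members 1.36, so the place of TnBP replicate 2 depends on the library factor used. Leaving out that library and recomputing the size factors gave 89 steady unigenes, with 68 of the 69 among them. Over the 6 ways of leaving out 1 library, 76 to 97 unigenes met the limits and 66 to 69 of the members did, fewer libraries making the limits easier to meet.

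When N of the 3 TnBP libraries was shifted by a common factor, the steady set changed gradually. This calculation was added after the data had been seen. At a log2 shift of -0.10, 78 of the 443 were steady, 55 of them members. The largest number, 97, was reached at -0.30 and again at -0.25, with 27 and 37 members respectively. Upward shifts lost members faster than they gained other unigenes, with 46 members left at 0.10, 21 at 0.20 and 0 at 0.50, a shift of 1.41-fold. More of the 443 were thus steady at a shift of -0.30 than under the size factors themselves, and the shift of 0.73 that leads to library totals lies beyond the point at which the last member is lost.

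**Figure D4:**
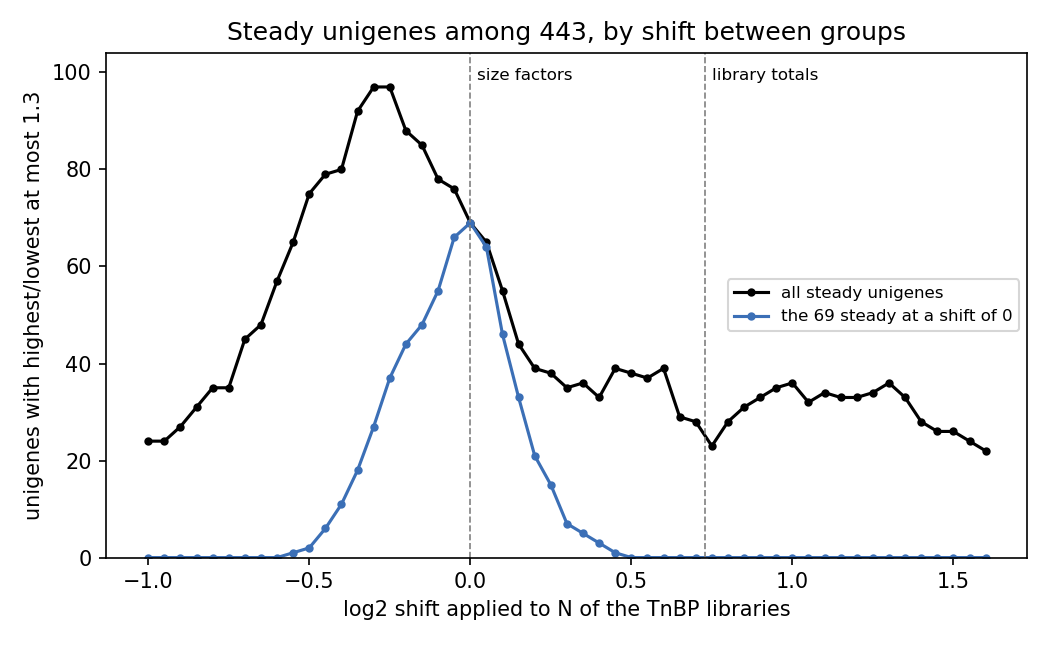
Number of the 443 abundant unigenes within a ratio of 1.3 over 6 libraries (vertical) when N of the TnBP libraries is multiplied by a common factor (horizontal, log2), for all unigenes (black) and for the 69 steady at a shift of 0 (blue). The black curve peaks at 97 for shifts of -0.30 and -0.25, and the blue curve reaches 0 at 0.50, before the dashed line for library totals at 0.73.

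The members covered a wide range of lengths, which the rule limited only from above. They were 596 to 3994 bases long with a median of 1774, against 1644 for the 443 abundant unigenes and 361 for all single unigenes. Unigene15307_Eisenia_Fetida, the longest at 3994 bases, had an N of 1263, 1351 and 1314 in controls and of 1499.6, 1558 and 1520.4 after TnBP. Its groups were apart by a ratio of 1.17. Unigene23762_Eisenia_Fetida, the shortest at 596 bases, had 511, 604 and 503 in controls and 557, 585 and 512 after TnBP, and its groups overlapped.

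The next shortest members differed between each other in the same sense. Unigene24200_Eisenia_Fetida, 752 bases long, had 752, 776 and 772 in controls and 795, 849 and 877 after TnBP, with groups apart. Unigene34227_Eisenia_Fetida, 759 bases long, had 818, 897 and 787 in controls and 728, 905 and 755 after TnBP, with groups that overlapped. Members made up 18.1% of the abundant unigenes under 1000 bases, 12.3% from 1000 to 2000, 16.1% from 2000 to 3000 and 20.3% above that. Across the 69 members, which are not independent replicates, the Spearman correlation of length with the log2 change in N was 0.08 and with the ratio -0.08.

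Steady unigenes were found more often at the lower end of the abundance range. Of the 443, those with a mean N of 500 to 1000 numbered 140, and 36 of them, or 25.7%, were members. Of 163 with a mean from 1000 to 2000, 14 were members, of 81 from 2000 to 4000, 15 were, and of 59 above 4000, 4 were. The ratio limit took 25.7%, 8.59%, 18.5% and 6.78% of these classes, so the share did not fall evenly with level. Across the 443 the Spearman correlation of mean N with the ratio of highest to lowest N was 0.36, a description over unigenes that share their libraries. The minimum of 500 bears on this, because a unigene near it that fell in 1 group was not among the 443. The limit on share bears on the upper end, because it capped the level in controls only. A unigene with a mean N far above that cap had to be higher after TnBP and could not be steady. Mean N reached 49869 in the 443 and 9210 in the members. The low share above 4000 and the correlation were thus partly fixed by the rule and are not a finding.

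**Figure D5:**
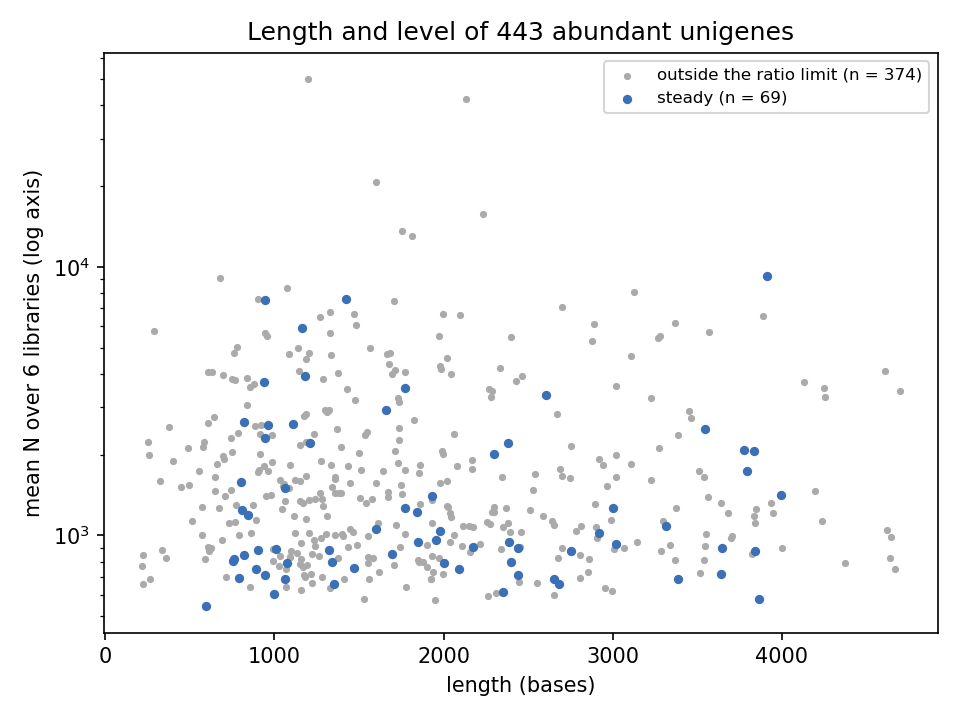
Length in bases (horizontal) and mean N over 6 libraries (vertical, log axis) of 443 abundant unigenes, with the 69 steady ones in blue and the other 374 in grey. The blue points extend from 596 to 3994 bases and lie mostly at the lower levels, with 36 of 69 under a mean N of 1000.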

How the data were processed

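Intestinal RNA of 6 libraries was analysed from 1 deposited table each. Per the file headers, the tables hold a length, an expected count and an FPKM value for every listed sequence. The deposited expected counts are estimates that are not scaled. The deposited FPKM values carry the authors' scaling for length and depth, per the file headers. The submitters' processing notes list RSEM, Bowtie 0.12.2 and mm8, a mouse build, with no role for any, although each identifier carries an earthworm suffix. How the sequences were assembled and reads filtered is not given in the sources used here, nor is the strand setting. RSEM can divide reads between similar sequences, so counts of unigenes with close copies are uncertain.

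Sequences absent from a table counted as 0. Steady unigenes were chosen with Python 3.11.15 and pandas 2.3.3 by the limits given above. Expected counts were rounded for edgeR 4.0.16 in R 4.3.3, with filterByExpr at its minimum count of 10, TMM factors, the quasi-likelihood test and Benjamini-Hochberg adjustment over all 25353 sequences kept. The fit of FPKM values used limma 3.58.1 with a pseudocount of 1, which understates changes of low sequences. Alternatives were DESeq2 1.42.0, other library factors, filters, pseudocounts and limits, each library left out, and the replicate number as a block.

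The members, the rule for naming unigenes and the tests were chosen with earlier results of these data known. Named were the members with the 5 smallest ratios, the 3 largest means, the 3 largest ratios, the 3 greatest and 3 smallest lengths and the 2 largest fitted changes in each direction, the 3 unigenes just outside the ratio limit, and the 3 steadiest under library totals. The closest and widest pairs were named after their values were seen. Within a group, the chi-square between libraries was 2.57 to 3.24 times what counting error gives, so none was a copy of another. P-values measure the spread between pools, which may be technical. No batch is labelled, and one that ran with the groups cannot be told apart from treatment.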

Additional observations from a re-analysis of the deposited data

How the results depend on the processing

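The number of steady unigenes, 69, stayed within 1.5 times with TMM library sizes, size factors from better-covered sequences, no length limit and each library left out. It was 33 under library totals, 30 with the level kept on N, 35 without scaling and 31 in FPKM, with 0 of the members in each. The distance of these scales from N left no room for members. Other limits gave 155 at an N of 250, 30 at 1000, 27 at a ratio of 1.2 and 158 at 1.5, and 115 with cluster sequences included, as their construction implies. The members' median log2 change, 0.03, moved to 0.80 under library totals and to 0.79 and 0.80 in the fits of log2(FPKM + 1) and log2(FPKM + 0.1), where TMM factors play no part. The 1 member called became 69 in each of these, 5 without a count filter, 6 with a filter at 5 CPM, and 0 to 2 with single libraries left out, not always the same member. For the filters the cause was not tested. Sequences called numbered 12321, and 7243 with the 5 CPM filter, which tested 11073, against 21487 and 19741 in the FPKM fits, which tested 55641. Unigene8131_Eisenia_Fetida turned from -0.24 to 0.54 under library totals and to 0.53 and 0.54 in the FPKM fits, and Unigene100_Eisenia_Fetida from -0.68 to 0.092, 0.092 and 0.095. Replicate numbers run from 1 to 3 in either group. Libraries sharing a number deviated from their group means with correlations of 0.002, 0.04 and -0.02. For 1 of 3 control libraries the best match was the TnBP library of its number. The labels name no pairing, and whether libraries of a number shared any handling was not tested. Under the replicate block, 0 members and 11253 sequences were called. Calls under library totals, 69, and the FPKM median were alike under their alternatives. DESeq2 called 1 member, Unigene7926_Eisenia_Fetida, as higher. Shares of all sequences called in DESeq2, without a count filter and with single libraries left out are not given here. The member counts under these settings are therefore not read as a result about the members. The level minimum of 500 keeps counting error low, and steadiness of rarer unigenes was not examined.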
